A study of Mus musculus with 4 samples.

Results

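Chr4-cl KO ES cells were compared with WT ES cells after 1 week in 2i media with vitamin C (hereafter 2i + Vitamin C), at CpG sites outside ETn and RLTR4 retrotransposons. Chr4-cl is a cluster of KRAB zinc finger protein (KRAB-ZFP) genes on chromosome 4, and it is deleted in the KO cells. A CpG site was kept when it was listed once in the file of each library and had at least 10 reads in both, which left 457903 of the 7859295 sites with a read in any of the 4 libraries of the series. With the sites of ETn and RLTR4 elements the number was 458337. Methylation of a site is the share of its reads that were methylated, in percent, and a change is the KO value minus the WT value in percentage points. The question was at which genes, promoters, gene bodies and intergenic positions methylation was lower or higher in KO cells. WT and KO cells were each 1 clone derived from mixed B6;129 mice carrying a cre/ERT transgene at the Rosa26 locus, picked after nucleofection with guide RNA plasmids and a pPGK-puro plasmid and a short puromycin selection. Each genotype had 1 library in 2i + Vitamin C and 1 in serum containing media, so every test here compares libraries, and the genotype cannot be told apart from the clone.

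DNA methylation in mammals is carried mainly by cytosines of CpG dinucleotides and is low at CpG-rich promoters of active genes. 2i inhibits MEK and GSK3, and vitamin C is a cofactor of TET enzymes, and together they bring ES cells to a state of low methylation. Imprinted genes are expressed from 1 parental allele, and the parental mark is a differentially methylated region that is set in the germ line and carried on that allele only. KRAB-ZFPs bind specific DNA sequences and recruit KAP1, which brings repressive histone marks, and some of them maintain methylation at imprinted regions or at retrotransposons.

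The sequences of 6 regions are shown because the largest or most evenly placed changes at promoters and intergenic positions lie in them. They were read from the plus strand of mm9, 5′ to 3′, and the capitals mark the CpG sites measured in both libraries. The Grb10 and Airn stretches are from promoters called lost that belong to imprinted loci, the Rtp2 stretch is from the promoter with the largest loss, and the Pgk1 stretch is from the promoter with the largest gain. The chromosome 19 and chromosome 16 stretches are from intergenic windows with a loss and a gain, respectively. No annotated exon overlaps any of these stretches.
Grb10, chr11:11926760-11926869: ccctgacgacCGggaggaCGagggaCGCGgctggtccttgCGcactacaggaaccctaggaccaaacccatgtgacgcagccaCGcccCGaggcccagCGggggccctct
Airn, chr17:12934446-12934617: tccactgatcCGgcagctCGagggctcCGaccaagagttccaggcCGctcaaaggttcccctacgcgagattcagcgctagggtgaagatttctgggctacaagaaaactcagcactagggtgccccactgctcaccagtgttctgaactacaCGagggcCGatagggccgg
Rtp2, chr16:23931726-23931872: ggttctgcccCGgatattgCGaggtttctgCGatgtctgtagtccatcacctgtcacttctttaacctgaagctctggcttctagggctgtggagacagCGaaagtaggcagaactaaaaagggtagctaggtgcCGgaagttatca
Pgk1, chrX:103382060-103382235: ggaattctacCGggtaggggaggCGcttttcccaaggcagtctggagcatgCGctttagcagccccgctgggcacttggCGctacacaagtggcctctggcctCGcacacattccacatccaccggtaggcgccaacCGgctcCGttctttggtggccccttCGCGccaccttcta
Chromosome 19 window, chr19:45266348-45266508: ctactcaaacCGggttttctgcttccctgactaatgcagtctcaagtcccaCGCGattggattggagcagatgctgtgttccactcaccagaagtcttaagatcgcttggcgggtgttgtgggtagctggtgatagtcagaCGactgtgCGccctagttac
Chromosome 16 window, chr16:87302767-87302909: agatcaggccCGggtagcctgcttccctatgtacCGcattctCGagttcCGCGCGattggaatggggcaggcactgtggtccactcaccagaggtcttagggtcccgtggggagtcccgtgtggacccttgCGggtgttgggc
In the 8 sites of the Grb10 stretch, methylation lay between 27.6% and 54.0% in WT and between 0% and 12% in KO cells. In the 9 sites of the Pgk1 stretch it lay between 0% and 5.88% in WT and between 76.3% and 89.5% in KO cells. No site of either stretch overlapped between the libraries.

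The WT library held 90649194 reads summed over sites and the KO library 42684672, and the compared sites had a median coverage of 75 and 35 reads. The ratio of KO to WT reads was between 0.415 and 0.487 on 18 chromosomes, 0.551 on chromosome 2 and 0.544 on chromosome X. The deposited KO file is a pair of joined tables, whereas the WT file is a single table. In serum this is reversed, with a joined pair for WT and a single table for KO cells. Within 2i + Vitamin C the kind of file therefore cannot be told apart from the genotype, and its part in the results was not tested. Of the pluripotency markers used to check the cell type, only the promoters of Sox2 and Esrrb had enough sites, at 1.82% and 2.15% in WT and 1.24% and 2.20% in KO cells.

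Methylation was lower in KO cells at each kind of position and on all 20 chromosomes. Mean methylation of all sites was 14.2% in WT and 12.5% in KO cells, a change of -1.72 points with a 95% interval from counting error of -1.74 to -1.70. The interval treats sites as independent, so it is too narrow. The 235336 promoter sites, defined as 1000 bp upstream to 500 bp downstream of an annotated start, had 3.58% in WT and 2.53% in KO cells. Outside promoters, 56092 exonic sites had 17.6% and 15.4%, and 76246 intronic sites had 23.4% and 20.7%. Intergenic sites within 10 kb of a gene had 22.2% in WT and 19.8% in KO cells, and those farther away had 37.6% and 35.3%. The changes were thus -1.05 points at promoters, -2.25 in exons, -2.69 in introns, -2.42 within 10 kb of genes and -2.26 beyond. Per chromosome, the change ranged from -1.91 to -1.44 points. Serum values went the other way. Over the promoters, gene bodies and 1-kb intergenic windows measured in all 4 libraries, median changes in serum were +1.04, +4.18 and +2.42 points. The same sites had median changes of -0.90, -1.85 and -1.09 points in 2i + Vitamin C. By these medians the lower library in each medium was the one whose file is a joined pair. The part of the kind of file was not tested.

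The direction of these means depends on how sites are weighted. When reads were pooled over sites, each site was weighted by its reads in that library, so the weights differed between WT and KO cells. A pooled change over several positions therefore mixes methylation with the spread of reads over sites. Pooled methylation was 9.32% in WT and 9.50% in KO cells. The change was then +0.18 points over all sites and +0.81 points at intergenic sites within 10 kb of genes, while promoters (-0.18), gene bodies (-0.34) and intergenic sites beyond 10 kb (-0.25) were still lower. Over sites given equal weight, 56.0% were lower and 28.7% were higher in KO cells.

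The difference widened with distance from the transcription start. In the 250 bp downstream of a start the means were 3.11% in WT and 2.10% in KO cells. Between 10 kb and 20 kb downstream they were 28.7% and 25.8%. The change went from -1.01 to -2.89 points over this range. The 295228 sites with an average of at most 5% in the libraries changed about equally at each position. Their changes were -0.82 points in promoters, -0.92 in gene bodies and -0.82 in intergenic DNA. Sites with an average of 5 to 20% in the libraries changed by -2.69 points in promoters, -2.24 in gene bodies and -1.35 in intergenic DNA. At an average of 20 to 40% these values were -4.90, -4.69 and -3.36 points. The order of the positions turned at higher levels, with -1.47, -2.86 and -4.00 points at 60 to 80% and +1.19, -0.73 and -1.63 points above 80%, where promoters had 108 sites.

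**Figure D1:**
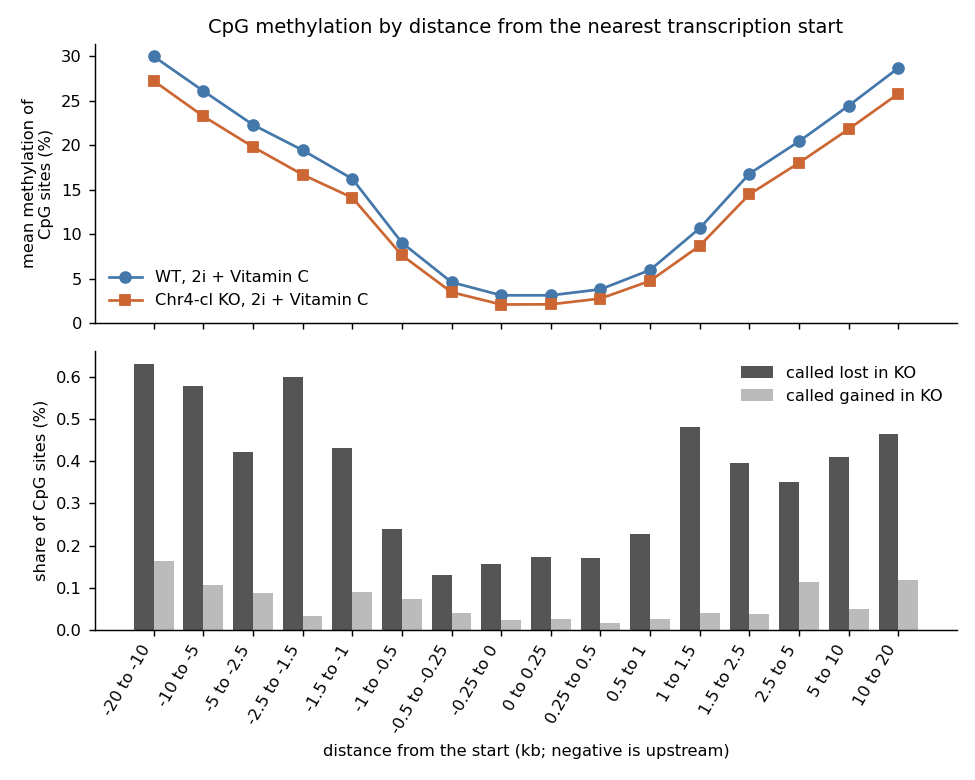
Mean methylation of CpG sites (upper panel, percent) and the share of sites called lost or gained in KO cells (lower panel, percent) by distance from the nearest transcription start in kb; the 2 lines are the WT and KO libraries in 2i + Vitamin C. The KO line lies below the WT line in every bin, by 1.01 points just downstream of the start and by 2.89 points in the bin farthest downstream.

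Single sites were called lost or gained when Fisher's exact test of the methylated against the unmethylated reads gave an adjusted p under 0.05 (Benjamini-Hochberg over all sites) and the change was at least 20 points. By this rule 1594 sites were lost (0.348% of all sites compared) and 408 were gained (0.0891%). Promoters held 393 lost sites (0.167% of promoter sites) and intergenic positions beyond 10 kb held 503 (0.857%). Exons held 198 lost sites (0.353%), introns 343 (0.45%), and intergenic positions near genes 157 (0.498%). These shares depend on the level, since a site below 20% in WT cannot lose 20 points. Among sites with 20 to 40% in WT, 6.15% of promoter and 0.50% of intergenic sites were lost. At 40 to 60% in WT the shares were 3.50% and 1.09%. By the average of both libraries they were 2.91% and 1.16% at 20 to 40%, and 1.19% and 1.69% at 40 to 60%. Of the gained sites, 201 lay beyond 10 kb of any gene (0.342% of those sites) and 63 in promoters (0.0268%).

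The called sites differed in level between positions. Lost promoter sites had a median of 32.7% in WT and 0.667% in KO cells. Lost sites beyond 10 kb of genes had medians of 72.1% and 27.4%, and lost exonic sites 50.7% and 11.4%. Gained promoter sites had medians of 2.27% in WT and 66.7% in KO cells, against 14.0% and 61.1% for gained sites beyond 10 kb. These medians describe sites chosen by the same values and carry no test.

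**Figure D2:**
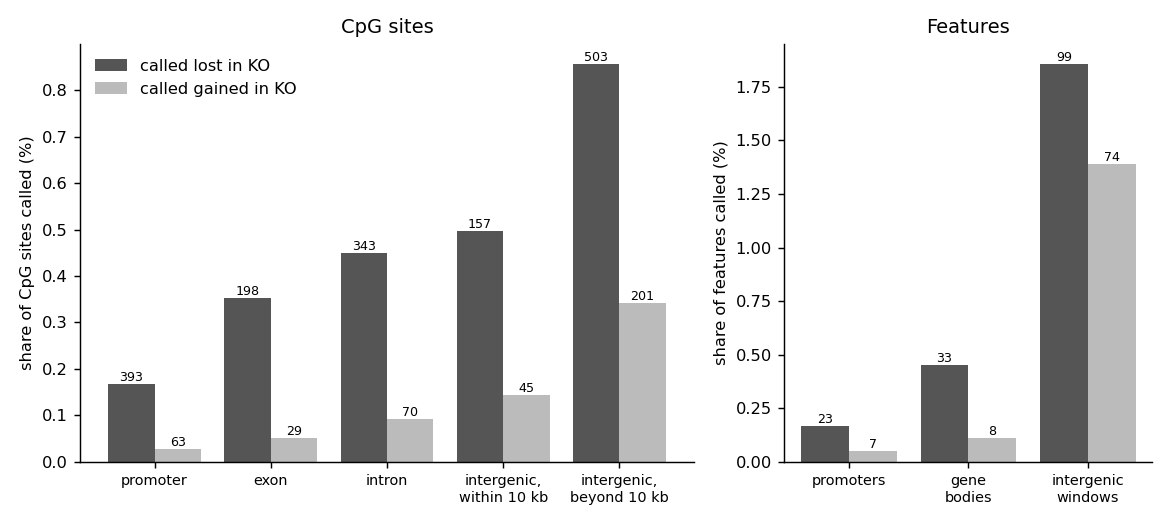
Share of CpG sites (left) and of promoters, gene bodies and 1-kb intergenic windows (right) called lost or gained in KO cells in 2i + Vitamin C, in percent of those tested; numbers above the bars are the counts called. Losses outnumber gains in each class, with 503 lost and 201 gained sites beyond 10 kb of genes and 99 lost and 74 gained windows.

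Promoters with at least 5 sites were tested on their pooled reads by Fisher's exact test, with p-values adjusted over all 13788 promoters, and called when the mean site change also reached 20 points. Of them, 23 were lost (0.167%) and 7 were gained (0.0508%), in 20 and 6 separate groups of sites because neighbouring genes share promoter sites. Protein-coding genes had 12239 promoters tested, with 8 lost and 4 gained. Pseudogenes had 263, with 8 lost (3.04%) and 1 gained. A read pair covers several CpG sites and is counted at each, so these p-values are too small. With reads counted once for each cluster of sites within 100 bp, 12 promoters were lost and 5 gained, and with reads counted once for each promoter, 1 and 2 (both counts added after seeing the data).

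**Figure D3:**
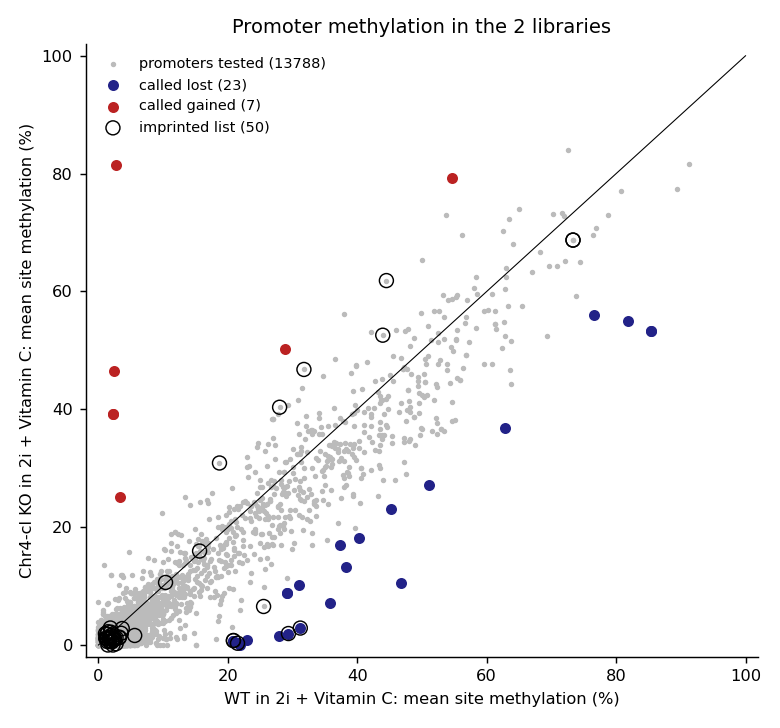
Mean site methylation of each of the 13788 promoters in WT (x axis, percent) and Chr4-cl KO cells (y axis, percent) in 2i + Vitamin C; colours mark the 23 promoters called lost and 7 called gained, open circles the 50 promoters of the imprinted gene list, and the line equal values. The 5 lost promoters of imprinted genes lie close to 0% in KO cells, while others of the list lie above the line.

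Of the imprinted genes, the promoters of Airn, Grb10, Plagl1 and the pair Peg10 and Sgce were called lost. Grb10 encodes an adaptor of receptor tyrosine kinases that restrains growth, and its 17 promoter sites averaged 29.4% in WT and 1.94% in KO cells. All 17 sites were lower in KO cells, from 12.01 to 54.0% in WT and from 0 to 12% in KO cells, and the site values did not overlap. Pooled over reads, Grb10 had 22.7% in WT (95% Wilson interval 21.6 to 23.9) and 2.27% in KO cells (1.15 to 4.41), with an adjusted p of 5.95e-25 by Fisher's exact test. A read pair is counted at each site it covers, so these intervals are too narrow and the p is too small. The KO reads here were few, at 20.8 reads a site against 291 in WT, a ratio of 0.0713 where the median promoter had 0.496. The promoter of Grb10 spans chr11:11925827-11928974 on the minus strand. 

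Airn is the noncoding RNA that is transcribed antisense to the imprinted gene Igf2r and silences it in cis. Its 6 promoter sites averaged 31.2% in WT and 2.88% in KO cells, and the site ranges of 24 to 42.1% and 0 to 5.71% did not overlap (adjusted p = 3.88e-17, Fisher's exact test). In the gene body, 8 intronic sites had 32.2% in WT and 5.81% in KO cells, and 7 of them were called lost. Those 7 lie within 131 bp near the promoter. The remaining site, 90704 bp from the first, had 41.8% in WT and 35.1% in KO cells. Peg10, a gene derived from a retrotransposon and needed in the placenta, and Sgce, which encodes epsilon-sarcoglycan, start back to back and share 10 sites at chr6:4697355-4697484. Those sites lay between 17.8% and 27.3% in WT and between 0% and 3.77% in KO cells, with means of 20.9% and 0.755%. Plagl1 encodes a zinc finger transcription factor of an imprinted growth network, and its 15 promoter sites fell from a mean of 21.5% to 0.303%. The change of Plagl1 became -18.9 points at a coverage minimum of 5 reads and -18.2 at 20, and that of Peg10 and Sgce -19.8 after thinning reads to the smaller coverage, each short of the 20 points of the rule. All 5 promoters kept their call when reads were counted once for each cluster of sites, with adjusted p between 8.33e-05 and 0.00417 by Fisher's exact test. All 5 lost it when reads were counted once for the whole promoter, and the single lost promoter under that count was Kcng3.

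In serum, the same sites were higher in WT and low in KO cells. Grb10 had 62.6% in WT and 7.48% in KO cells, Airn 53.5% and 10.4%, and Peg10 and Sgce 57.8% and 0%. The latter was 0 of 444 reads summed over the shared sites, with 33 to 46 KO reads at each. A read pair is counted at each site it covers, so the independent reads are fewer than 444. For Plagl1, 5 sites were read in all libraries, with serum values of 45.2% in WT and 2.00% in KO cells. In each of these promoters WT cells in 2i + Vitamin C lay between the 2 KO libraries and WT cells in serum. The same clones were grown in both media, so these are not independent KO lines, and the kind of file goes the other way in serum.

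**Figure D4:**
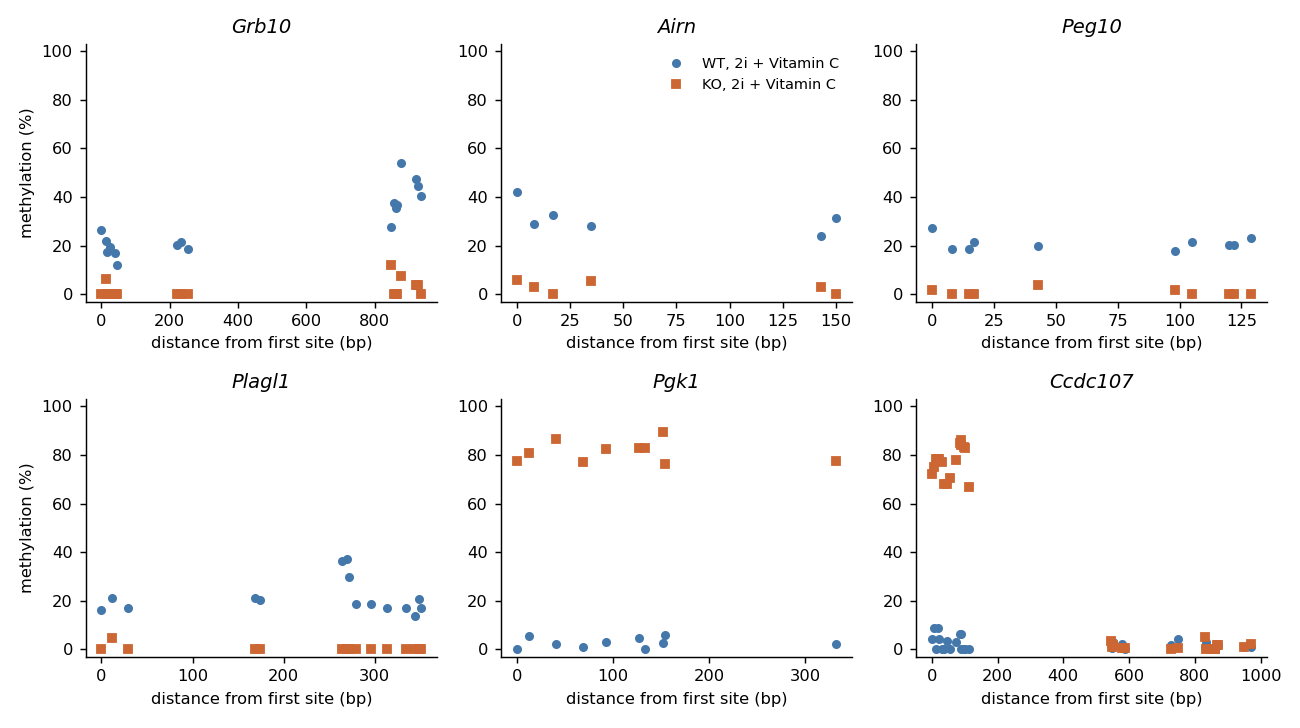
Methylation of each CpG site (y axis, percent) along 6 promoters by distance from the first site measured (x axis, bp), in WT (circles) and KO cells (squares) in 2i + Vitamin C. Sites of Grb10, Airn, Peg10 and Plagl1 are lower in KO cells throughout, all 10 sites of Pgk1 are higher, and the first 16 sites of Ccdc107 lie between 66.7% and 86.0% in KO cells while its other 16 reach at most 5.21%.

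Values at the other imprinted loci differed in direction. The list of 60 imprinted genes was chosen with earlier results of these data known, so its counts carry no test. It had 50 promoters tested from 39 genes, with 5 lost and none gained, beside 0.167% lost over all promoters. Peg10 and Sgce, 2 of the 5, share their sites. Of the 15 on the list with at least 10% in WT, 5 were lost, beside 2.9% of the 793 such promoters in all. In KO cells 8 of the 15 were lower, against 588 of the 793, and the median change was -4.62 points against -3.70. On chromosome 2, the promoter of Nespas, an antisense RNA of the Gnas locus, had 44.5% in WT and 61.8% in KO cells, and the Gnas start in the same region had 43.9% and 52.6%. Nnat, which encodes neuronatin, had 28.0% and 40.4%, and Blcap around it 31.8% and 46.8%. Mest on chromosome 6 had 18.7% and 30.9%. Herc3 and Nap1l5, whose promoters share 14 sites, had 73.3% and 68.7%. None of these reached a change of 20 points. Inpp5f, with 25.5% in WT and 6.54% in KO cells, lay just short of it at -18.98 points (adjusted p = 0.000793, Fisher's exact test), as did Mir431 at -19.8, a microRNA gene outside the list. Mean methylation was thus lower in KO cells at some imprinted loci and higher at others within 1 pair of libraries. In serum, Nespas, the Gnas start, Nnat and Blcap were also higher in KO cells, by 4.67, 2.41, 5.99 and 5.37 points. Mest went the other way there, with 50.1% in WT and 39.0% in KO cells. Herc3 and Nap1l5, lower in KO cells in 2i + Vitamin C, were higher by 3.60 points in serum.

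The remaining lost promoters were mostly of pseudogenes and noncoding RNAs. Rtp2, which encodes a chaperone of odorant receptors, had 5 sites at 38.9 to 56.4% in WT and 0 to 21.7% in KO cells, with means of 46.8% and 10.6%. It kept its call with reads counted once per cluster (adjusted p = 0.0495, Fisher's exact test). In serum the Rtp2 sites with at least 10 reads had 76.9 to 100% in WT and 93.75 to 100% in KO cells, so no loss was seen there. Kcng3 encodes a modifier subunit of voltage-gated potassium channels, and its 6 sites averaged 23.0% in WT cells, against 0.933% in the KO library. The WT values ran from 4.8 to 66.7% within 38 bp, and 2 of the 6 sites were called lost. In serum Kcng3 was the reverse, with 0.869% in WT and 24.2% in KO cells, where sites ran from 3.65 to 71.9%. With a coverage minimum of 5 reads its change in 2i + Vitamin C was -11.3 points, and the call was lost. The noncoding RNA gene 1810058I24Rik had 21.9% in WT and 0% in KO cells over 14 sites, and 27.8% and 3.32% in serum. The 0% was 0 of 281 reads summed over the sites, and the independent reads are fewer. This gene lies outside the gene lists and is named because its direction was the same in both media. Sh3rf2, which encodes a RING finger protein, had 27.9% in WT and 1.499% in KO cells, and 78.8% and 48.5% in serum. It did not keep its call with reads counted once per cluster (adjusted p = 0.117, Fisher's exact test). Mir370 and AC152063.1 of the imprinted Dlk1-Dio3 region share 5 sites, with 29.2% in WT and 8.81% in KO cells, but with 75.3% and 89.0% in serum.

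Of the pseudogenes and processed transcripts, Gm14148 and the small nucleolar RNA gene SNORA17 share 6 sites with 85.4% in WT and 53.2% in KO cells. Gm14388 had 35.8% and 7.15%, Gm12892 81.9% and 55.1%, Gm7148 62.9% and 36.9%, and Gm10075 38.2% and 13.2%. None of these 5 groups kept its call with reads counted once per cluster. Gm13436 with 51.1% and 27.1% and Pisd-ps1 with 45.1% and 23.0% kept it. Reads of pseudogenes can come from near-identical copies, so their values are uncertain. At Gm7148, Gm10075, Gm13436 and Pisd-ps1, methylation in serum was higher in KO than in WT cells, by 3.10 to 12.1 points. The remaining 4 lost promoters were those of Mir149, Gm11518, Gm4798 and Socs7, with WT values between 30.9% and 76.6% and KO values between 10.3% and 56.1%, and none of them kept its call with reads counted once per cluster.

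The largest gain at a promoter was at Pgk1, the X-linked gene of the glycolytic enzyme phosphoglycerate kinase. Its 10 sites lay between 0% and 5.88% in WT and between 76.3% and 89.5% in KO cells, with means of 2.75% and 81.4% (adjusted p = 3.31e-202, Fisher's exact test). In serum, the 8 sites read in all libraries had 6.66% in WT and 83.7% in KO cells. The KO reads were also more numerous there, at 1.37 times the WT reads in 2i + Vitamin C, where chromosome X had 0.544, and 12.1 times in serum. The pPGK-puro plasmid used in making the clones is named for the promoter of this gene, and whether reads of plasmid copies lie in these values was not tested. Pgk1 kept its call under every alternative that held its sites, including reads counted once for the whole promoter.

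At 2 other gained promoters the high values were confined to part of the sites or to certain libraries. Ccdc107, a coiled-coil protein gene, and RNase_MRP, the RNA of a ribonuclease that processes ribosomal RNA, share 32 sites. The first 16 sites had 66.7 to 86.0% in KO and 0 to 8.70% in WT cells, while the other 16 had 0 to 5.21% and 0 to 4.44%. In serum the first sites were high in WT, at 20.0 to 81.8% over 6 sites with enough reads, and low in KO cells, at 0 to 6.67% over 10 sites. AC157822.1, a small noncoding RNA gene, had 2.39% in WT and 46.6% in KO cells, with serum values of 20.8% and 2.63%. Of its 10 sites, 8 were called gained. Its KO reads were 1.91 times the WT reads in 2i + Vitamin C, where the median promoter had 0.496. In both promoters the high libraries were the KO library in 2i + Vitamin C and the WT library in serum, whose files are the joined pairs of tables. Whether the kind of file has a part in these gains was not tested.

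The other gained promoters changed less. Tsc22d1, a leucine zipper gene induced by TGF-beta, had 3.35% in WT and 25.1% in KO cells over 7 sites. Gm17462 had 54.7% and 79.3%, with 65.7% and 64.7% in serum, and Gm11605 had 28.8% and 50.3%, with 88.5% and 94.7% in serum. Tsc22d1 kept its call with reads counted once per cluster, and the others did not.

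**Figure D5:**
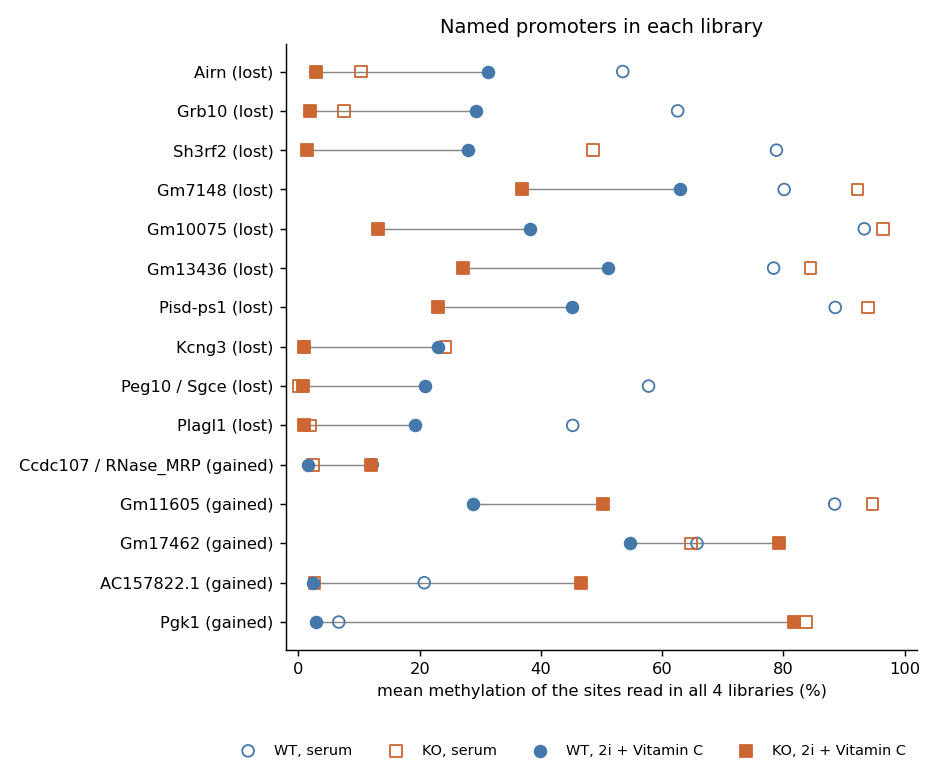
Mean methylation (x axis, percent) of named promoters over the sites with at least 10 reads in all 4 libraries, in WT (circles) and KO cells (squares), in serum (open) and in 2i + Vitamin C (filled, joined by a line). Airn, Grb10, Peg10 / Sgce and Plagl1 are lower in KO cells in both media and Pgk1 is higher in both, while Kcng3 and AC157822.1 go opposite ways.

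In the other gene lists no promoter was called, beside 0.167% lost and 0.0508% gained over all promoters. Germline genes, which are methylated in somatic cells, had 25 promoters tested. The 7 with at least 10% in WT were all lower in KO cells, with a median change of -5.13 points. Of the 793 such promoters in all, 588 were lower, with a median change of -3.70 points. In serum, the 22 germline promoters measured were higher in KO cells by a median of 5.94 points, beside 1.04 over all promoters. Asz1, a piRNA pathway gene of germ cells, changed the most, from 18.7% in WT to 6.99% in KO cells, and Taf7l, a testis transcription factor gene, had 13.6% and 5.57%. Tex101 had 31.2% and 24.7%, Sycp3 of the synaptonemal complex 15.6% and 10.4%, and Fkbp6 20.4% and 19.9%. The 12 promoters of naive pluripotency genes and the 16 of primed and differentiation genes were below 10% in WT, with median changes of -0.68 and -1.001 points against -0.90 over all promoters. Genes of the methylation machinery had 16 promoters, among which Dnmt3a, encoding a de novo methyltransferase, had a start with 34.7% in WT and 45.7% in KO cells (adjusted p = 0.38, Fisher's exact test). The 20 promoters of KAP1 pathway genes changed by a median of -0.53 points.

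Gene bodies, meaning exonic and intronic sites outside promoters, were tested in the same way for 7302 genes. Of them, 33 were lost (0.452%) and 8 gained (0.11%), and with reads counted once per cluster 15 and 4. The largest loss was in BC035947, where 6 intronic sites averaged 69.1% in WT and 21.1% in KO cells, with 46.2 to 81.0% and 11.1 to 32.5% across sites. The adjusted p was 1.28e-21 by Fisher's exact test, and serum values were 95.5% and 89.0%. Cfd, the gene of complement factor D, had 13 exonic sites with 41.5% and 14.4%, all lower in KO cells, and 91.4% and 81.6% in serum. Adam34, a testis metalloprotease-like gene, had 59.9% and 27.2% over 5 intronic sites, and its change was -16.3 points at a coverage minimum of 5 reads. Its mean of 210 reads a site in WT, against 12.6 in KO cells, came mostly from 1 site. That site, 17660 bp from the first, held 973 of the 1049 WT reads, with 99.5% in WT and 63.2% in KO cells. The other sites had 19 WT and 11 KO reads each.

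Of further lost bodies, Npc1, of lysosomal cholesterol transport, had 62.3% in WT and 30.9% in KO cells in an intron, at 18 and 11 reads a site. Ly75, an endocytic receptor gene of dendritic cells, had 49.2% and 22.9%, and Eef1d, of translation elongation, 36.9% and 10.9%. None of these 3 kept its call with reads counted once per cluster. The loss at Ly75 lay mostly in 5 exonic sites within 72 bp. Its 3 intronic sites had 24.1 to 46.2% in WT and 23.5 to 34.4% in KO cells. Among gained bodies, the noncoding RNA gene 4930554H23Rik had 33.5% in WT and 66.4% in KO cells in its introns, and Ros1, a receptor tyrosine kinase gene, had 25.9% and 48.3%. Cntn4, encoding a neuronal adhesion protein, had 43.8% and 67.8% with 8 of 10 sites higher, and its change was 0.67 points at a coverage minimum of 5 reads. In serum Cntn4 was the other way round, with 71.1% in WT and 51.3% in KO cells. Nt5c1b, a cytosolic nucleotidase gene, had 50.0% and 73.3% at 10 and 15 reads a site, and 2510009E07Rik 75.4% and 100% over 5 sites, and neither kept its call with reads counted once per cluster.

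Intergenic windows of 1 kb had a larger share of calls than all promoters or all gene bodies. Levels differ between these classes, and of the 793 promoters with at least 10% in WT, 2.9% were lost. Of 5329 windows, 99 were lost (1.86%) and 74 gained (1.39%), and with reads counted once per cluster 36 and 26. Lost windows had medians of 61.6% in WT and 34.6% in KO cells, and gained windows 31.2% and 60.01%. Chromosome 7 had 13 lost and 4 gained windows of 340, chromosome 6 had 4 lost and 10 gained of 308, and chromosome X had 8 lost and 10 gained of 247. No window was gained on chromosomes 17 and 18, of 208 and 177 tested.

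The lost window with the strongest change outside element-like sequence was at chr19:45266001-45267000, where 5 sites had 44.6 to 72.9% in WT and 7.89 to 30.3% in KO cells. On average these sites had 62.7% in WT and 17.3% in KO cells. Serum values were 85.7% and 27.6%, so KO cells were lower in both media. At chr7:131015001-131016000, 8 sites had means of 67.4% and 25.9%, but 92.3% and 93.1% in serum. A window on chromosome 18 had 51.9% and 10.4%, with 90.3% and 92.6% in serum, and chr10:18279001-18280000 had 41.3% and 3.64%. In the window at chr1:173413001-173414000, the means were 77.7% and 20.6%, but the bases around all 11 sites align to full-length ETn or RLTR4 elements. Such element-like sites were 321 of the sites compared (0.0701%), and 2 lost windows and no gained window held any.

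Among gained windows, chr6:41193001-41194000 had 27.5% in WT and 84.7% in KO cells over 7 sites, from 13 and 29 reads a site, and 44.9% and 35.7% in serum. The measured stretch of this window aligns to that of the Gm17462 promoter over 177 bases with 97.2% identity, and to that of Cntn4 over 194 bases with 87.6%. All 3 gained, and their KO reads outnumbered the WT reads 2.23, 3.15 and 3.31 times in the window, Gm17462 and Cntn4, where the medians of windows, promoters and gene bodies were 0.558, 0.496 and 0.48. Whether reads of one copy were placed at another was not tested. At chr16:87302001-87303000, the 7 sites lay between 7.35% and 14.6% in WT and between 47.6% and 73.3% in KO cells. That window had 535 reads a site in WT and 44.1 in KO cells, and 71.4% and 56.2% in serum. The chromosome 16 and chromosome 19 stretches printed above align to each other over 101 bases with 77.2% identity, a feature of repeated sequence, and repeats other than ETn and RLTR4 elements were not analysed here. A window at chr7:4144001-4145000 had 19.03% and 66.8%.

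Serum values of the called features were given for comparison, without a test. Of the 23 lost promoters, 16 were measured in serum, where 8 were lower and 8 higher in KO cells, beside 1586 lower and 11501 higher of all 13099 promoters measured there. The 7 that were lower by at least 20 points were Airn, Grb10, Sh3rf2, Peg10, Sgce, Plagl1 and 1810058I24Rik. Over all promoters in serum 0.084% were lower by at least 20 points and 0.97% were higher. Of the 7 gained promoters, 6 were measured and 2 were higher, with only Pgk1 by at least 20 points. Of 15 lost gene bodies measured, 9 were lower, beside 700 of all 6610. Only Airn was lower by at least 20 points, where 0.151% of all gene bodies were lower and 2.42% were higher by that much. Of 90 lost windows measured in serum, 30 were lower and 60 higher, with 2 lower by at least 20 points beside 0.289% of all windows. Over all 4851 windows measured there, 1141 were lower and 3704 higher. Of 52 gained windows, 37 were higher, a share near that of all windows, and 5 of them by at least 20 points beside 5.36% of all windows. Lost windows had a median of 90.1% in WT cells in serum, and 75 of the 90 had at least 80% there.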

How the data were processed

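Methylation was measured by RRBS-seq on MspI fragments of DNA from ES cells of both genotypes (WT and Chr4-cl KO), with 1 library per genotype and medium. Per the methods and labels, the authors used Trim Galore for trimming of short paired-end reads and Bismark for mapping to mm9. They deposited a count of all reads and a count of methylated ones for every CpG dyad, beside the fraction these give. The fraction was checked against the counts and not used further. Versions are not given in the sources used here. Reads carry no molecular identifiers, so intervals and tests cover counting error only.

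Sites listed more than once in a file were dropped, as were sites in ETn and RLTR4 elements placed by the capture probes (with 500 bp on each side) and in the Chr4-cl gene span. Positions came from GENCODE vM1 on NCBIM37 (mm9). Promoter starts of a gene within 1500 bp were merged, and features needed at least 5 sites. Per-site and per-feature counts were compared by a 2-sided Fisher's exact test, with p-values adjusted by the Benjamini-Hochberg method (scipy 1.17.1, numba 0.67.0, pandas 2.3.3), tested on simulated data. Named features were the 12 promoters, 8 gene bodies and 5 windows with the largest loss, the 8, 5 and 3 with the largest gain (6 gained groups of promoters existed), and every called promoter of the gene lists. One gene body that this rule selects is not reported here. Other features named were chosen after their values were seen. Where a count was 0, no upper limit is given, since reads summed over sites count a read pair more than once. The serum comparison by the same rule held 587816 sites. Element-like sites were those whose surrounding 201 bases aligned (blastn 2.17.0, at least 100 bp and 80% identity) to at least 10 elements. Alternatives changed coverage, position, exclusion, call and test settings. The members and gene lists were chosen with earlier results of these data known.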

Additional observations from a re-analysis of the deposited data

Results flagged for a closer look

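The promoter of Kcng3 went opposite ways in the 2 media. In 2i + Vitamin C its 6 sites averaged 23.0% in WT against 0.933% in KO cells, and in serum 0.869% against 24.2%, a change of 23.4 points. Each medium has 1 library per genotype, so the difference was not tested. Across the sites, values ran from 4.8 to 66.7% in WT in 2i + Vitamin C. In KO cells in serum they ran from 3.65 to 71.9%. The high libraries, WT in 2i + Vitamin C and KO in serum, are those whose files are single tables.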

How the results depend on the processing

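With 1 library per genotype and medium there is no replicate check. No paired analysis was possible because no group has a second sample. A coverage minimum of 5 reads gave 45 lost and 12 gained promoters, 72 and 16 gene bodies and 228 and 146 windows, and a mean change of -1.77 points over all sites. A minimum of 20 reads gave 9 lost promoters, 11 lost and 2 gained gene bodies, 53 and 31 windows, and mean changes of -1.65 points over all sites and -2.39 in gene bodies. Thinning to the smaller coverage gave 1052 lost and 202 gained sites. Calls at 10 points were 2591 lost sites, 106 and 24 promoters, 328 and 46 gene bodies, and 425 and 260 windows, and at 30 points 964 lost sites, 3 and 4 promoters, 3 and 1 gene bodies, and 16 and 22 windows. Requiring 10 sites gave 5 and 4 promoters, 4 and 1 gene bodies, and 3 and 7 windows, and requiring 3 sites gave 51 and 14, 91 and 15, and 310 and 138. Pooling reads over sites turned the mean change over all sites to 0.18 points and over intergenic sites to 1.73, although intergenic sites within 10 kb of genes (0.807) and beyond (-0.252) each changed by less, and gave -0.183 in promoters and -0.339 in gene bodies. Promoters of 2000 bp on both sides gave mean changes of -1.16 in promoters and -2.92 in gene bodies and 38 lost promoters, and promoters of 250 bp gave 14. Reads counted once per cluster of sites, an alternative added after seeing the data, gave 12 lost promoters, 15 lost and 4 gained gene bodies, and 36 lost and 26 gained windows. Reads counted once per feature, also added, gave 1 and 2 promoters, 3 lost and 0 gained gene bodies, and 11 and 7 windows. Pooled reads weight sites by the reads of each library, and the cause of the other differences was not tested. The KO median of 35 reads a site limits the calls of single sites, and large changes of single sites may be missed too. Keeping the elements, leaving 10 kb around them out, dropping the deepest sites, autosomes only, the Cochran-Mantel-Haenszel test and leaving out element-like sites (added) kept every count within 1.5 times. No named feature changed direction under any alternative. Of 42 named features, 25 lost their call at 30 points, 6 at a minimum of 5 reads, 3 after thinning, 15 with reads counted once per cluster and 34 with reads counted once per feature, and 1 of 19 at a minimum of 20 reads.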
